A study of Capra hircus with 2 samples.

Results

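KLK7, KLK12 and CST6 are 3 of the 27137 features measured in the skin of Liaoning cashmere goats, and they were chosen by symbol, with earlier results of these data in view. KLK7 (gene 102178562) and KLK12 (gene 102179696) encode kallikreins, and CST6 (gene 102176023) encodes cystatin M/E. All 3 symbols were found. Single-cell RNA sequencing was done on skin from over the scapula of 2 healthy goats in anagen, the growth phase of the hair follicle, after the tissue was dissociated and dead cells were removed. One goat was of the coarse type (CT-LCG, the CT goat) and one of the fine type (FT-LCG, the FT goat), with 1 library per type. None of the sources used here gives their age or sex. The list of kept cells, and not the sample labels, gave the fibre type of each library. It held 3443 cells with 27890472 UMIs (counted molecules) in the CT goat and 9608 cells with 85400323 UMIs in the FT goat. Each type was 1 goat, so the type, the goat and the library cannot be told apart, no test between the types was possible, and all intervals below are exact 95% intervals that cover counting error only. The libraries shared 11 barcode sequences among the kept cells.

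Kallikreins are secreted serine proteases of the epidermis. KLK7 cuts like chymotrypsin and helps to take apart the corneodesmosomes that hold dead surface cells together, KLK5 cuts like trypsin and can activate KLK7, and KLK12 is another trypsin-like member whose role in skin is less well known. Their best-known inhibitors in skin are serine protease inhibitors of the SPINK family. Cystatin M/E blocks cysteine proteases, among them cathepsin V, cathepsin L and legumain, and so limits the cross-linking of the cornified envelope by transglutaminases. CST6 is therefore an inhibitor of the same outer layers but is not known as an inhibitor of kallikreins, and the members are treated here as 2 proteases and 1 neighbour in the same tissue layer. In the goat assembly ARS1.2 of RefSeq, KLK7 lies between KLK6 and KLK8 and KLK12 between KLK11 and KLK13, in 1 run of kallikrein genes, whereas CST6 lies between BANF1 and CATSPER1. Coordinates are not given, since none of the sources used here names the build behind the counts.

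The 3 genes had their highest level in the granular-like cluster, the cells led by loricrin (LOR) and CNFN, except for KLK12 in the FT goat. This cluster held 107 cells in the CT goat and 338 in the FT goat, that is 3.11% and 3.52% of the cells. Any LOR UMI was found in 46.7% and 70.7% of these cells. The granular-like cluster was 1 of 18 clusters, which were made without the members and without the other genes of the lists used here. Of the clusters, 17 had at least 20 cells in both libraries. A level is the number of UMIs of a gene per 10000 UMIs, with the cells of a cluster pooled.

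KLK7 was at 17.5 (16.97 to 17.95) in the granular-like cells of the CT goat and at 29.9 (29.5 to 30.4) in those of the FT goat. Next came cluster 6, an unnamed cluster led by KRT79 and EDN1, at 3.61 and 4.17. The granular-like level was thus 4.83 and 7.18 times the next one. The third place was held by the shallow inner root sheath-like cluster, at 2.34 and 2.42, which was no higher than the 2.41 and 3.72 of the barcodes that the authors left out of their list of cells. Below the third place the levels ran together, and in the whole order 13 of 16 neighbouring pairs of clusters in the CT goat and 12 of 16 in the FT goat had overlapping intervals. In the main basal epidermal-like cluster KLK7 was at 0.117 and 0.158. The KLK7 signal was therefore narrow, with 64.0% of all KLK7 UMIs of the CT goat and 74.0% of those of the FT goat in the granular-like cells.

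KLK12 had a pair of high clusters in each library. It was at 15.002 (14.6 to 15.5) in the granular-like cells of the CT goat and at 12.3 (11.9 to 12.7) in cluster 12, an unnamed cluster led by KRT4, S100A7A and SPINK7 with 104 cells. In the FT goat the order of these pooled levels was turned, with 8.65 (8.39 to 8.90) in the 272 cells of cluster 12 and 6.24 (6.05 to 6.44) in the granular-like cells. In both libraries the intervals of these 2 clusters were apart, which leaves out the spread between cells. By the median cell, cluster 12 was higher in both goats, at 4.68 against 0.343 in the CT goat and 0.385 against 0 in the FT goat. KLK12 was also found in more of its cells, 80.8% against 59.8% and 51.8% against 46.4%. The next cluster, the inner root sheath-like one, was at 3.27 in the CT goat and 1.00 in the FT goat, close to the 3.02 and 1.07 of the left-out barcodes. Cluster 12 held 35.5% of the KLK12 UMIs of the CT goat and 42.6% of those of the FT goat, against 8.56% and 1.28% of the KLK7 UMIs. Its cells carried KRT10 at 358 and 551 per 10000 and LOR at 0.11 and 0.42, so they were keratinocytes of a KRT10 kind with hardly any loricrin.

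CST6 was at 162 (161 to 164) in the granular-like cells of the CT goat and at 904 (901 to 906) in those of the FT goat. Cluster 6 followed in the FT goat at 165, and in the CT goat it was at 28.0, behind cluster 15, a small unnamed cluster of 55 cells led by TAGLN, at 61.6. The median cell of cluster 15 was at 17.7 and its highest at 2514, so few cells set that level. The same held for cluster 6, with median cells at 3.15 in the CT goat and 26.1 in the FT goat and highest cells at 1777 and 3472. In cluster 12, the other cluster high in KLK12, CST6 was at 2.09 and 11.1, and in the main basal epidermal-like cluster at 1.64 and 5.45. The granular-like cells held 71.7% of the CST6 UMIs of the CT goat and 70.5% of those of the FT goat. Endothelial-like cells, which should lack the gene, had 5.36 and 8.10. Cluster 12 was below this in the CT goat and above it in the FT goat, and the basal cells were below it in both. The endothelial-like cells were shallow, with median depths of 1798.5 and 2826 UMIs. Cluster 12 had 26150 and 18246 and the main basal epidermal-like cluster 12152 and 8435.5. The part of depth in these levels was not tested.

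**Figure D1:**
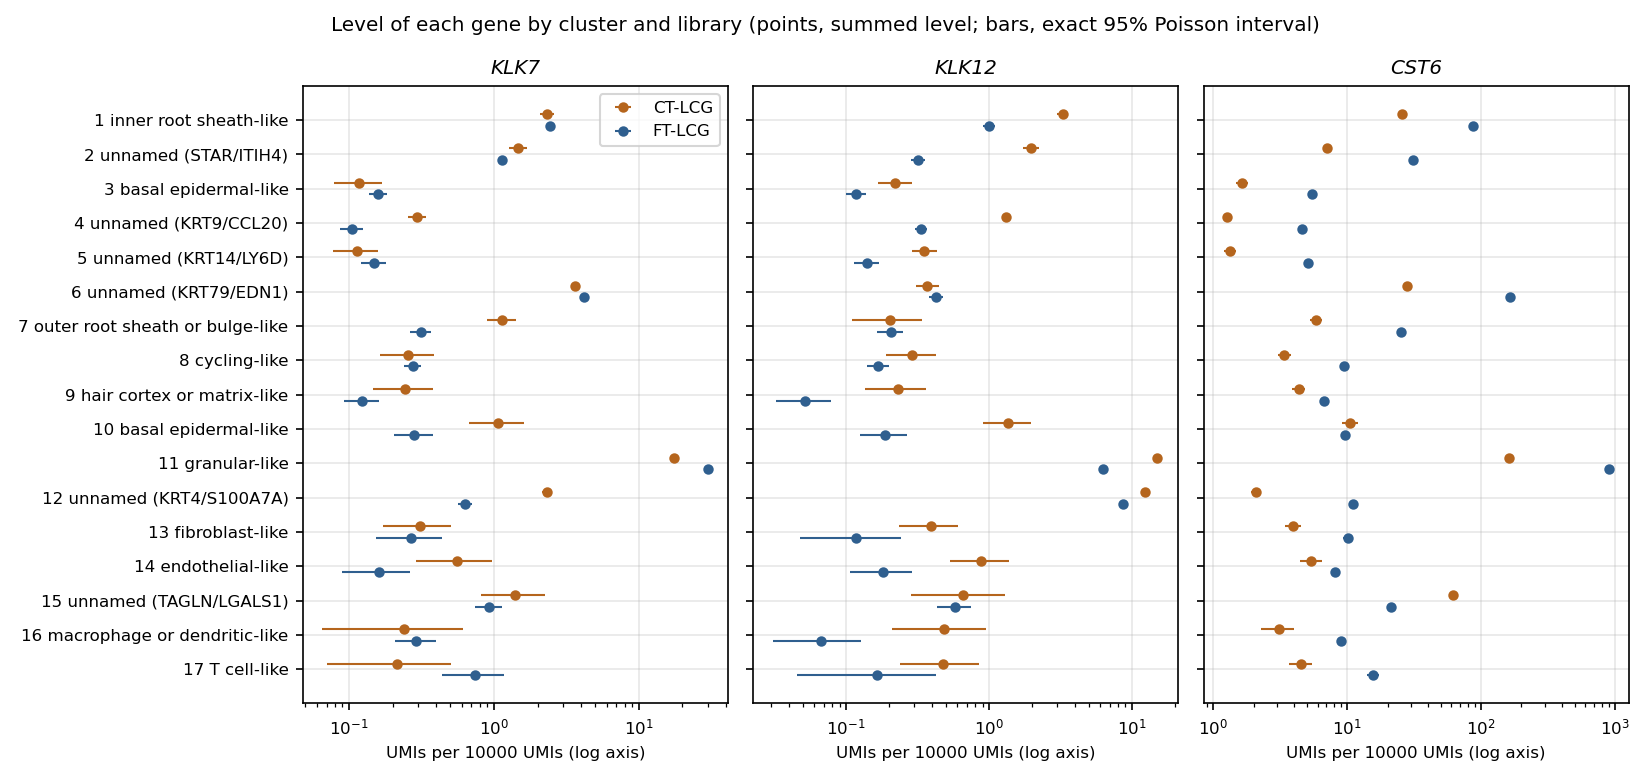
Level of KLK7, KLK12 and CST6 (x axis, UMIs per 10000 UMIs, log axis) in the 17 clusters with at least 20 cells in both libraries (y axis), with CT-LCG in brown and FT-LCG in blue and bars for the exact 95% Poisson interval. KLK7 and CST6 peak in the granular-like cluster 11, while KLK12 is also high in cluster 12, at 12.3 and 8.65.

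The order of clusters can be set against other genes. Over the 17 clusters, on log2(level + 0.1), the profile of KLK7 had a Pearson correlation of 0.90 with that of CST6 (mean of 0.82 in the CT goat and 0.97 in the FT goat), and of 0.71 with that of KLK12. CST6 and KLK12 had 0.50. Among the 8151 genes that reached 200 UMIs per library, those most like KLK7 included LY6G6C (0.94), LOC102181164 (0.91), RHOD (0.91) and KLK5 (0.90). Those most like KLK12 were LYPD2 (0.94), LOC108633164 (0.94), S100A7A (0.92), LOC102171351 (0.91) and the inhibitor gene SPINK7 (0.91). Those most like CST6 were LOC102168381 (0.89), PSAPL1 (0.87), LY6G6C (0.87), IL36RN, an antagonist of interleukin signalling (0.86), and the keratin gene KRT23 (0.86). These values describe profiles of clusters that share their libraries and, in part, free RNA, and they are not tests.

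Single cells within the granular-like cluster differed widely. KLK7 per cell went from 0 over a median of 13.3 to 118 per 10000 in the CT goat and from 0 over 24.0 to 213 in the FT goat. KLK12 went from 0 over a median of 0.343 to 170 in the CT goat and from 0 over 0 to 131 in the FT goat. CST6 went from 0.765 over a median of 59.7 to 2443 in the CT goat and from 2.61 over 220 to 5857 in the FT goat. Thus most granular-like cells had some KLK7, about as many had no or hardly any KLK12 as had it, and in the cell with the most CST6 this gene alone made up over 50% of the molecules. The 1% of cells with the most UMIs of a gene (34 cells in the CT goat and 96 in the FT goat) held 50.9% and 55.4% of all KLK7 UMIs, 59.5% and 71.6% of all KLK12 UMIs, and 71.5% and 70.5% of all CST6 UMIs. Summed levels of these genes are therefore set by few cells.

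For a look at the epidermal layers, the granular-like cells were set against the basal epidermal-like clusters as 1 group (332 cells in the CT goat and 1593 in the FT goat). KLK7 was at 17.5 against 0.190 in the CT goat and at 29.9 against 0.172 in the FT goat, a log2 difference of 6.52 (6.13 to 6.95) and 7.44 (7.25 to 7.63). KLK12 differed by 5.60 (5.29 to 5.93) and 5.63 (5.41 to 5.86) on the log2 scale. CST6, at 162 against 2.32 and 904 against 5.92, differed by 6.13 (6.01 to 6.24) and 7.25 (7.22 to 7.29). All 3 members passed a factor of 2 upward in both libraries. Among all genes with at least 100 UMIs in the compared cells, 14.5% of 4949 in the CT goat and 11.5% of 8759 in the FT goat did so, and 17.8% and 28.7% passed it downward. Of those genes, 41 in the CT goat and 38 in the FT goat had a larger difference than KLK7, 50 and 43 a larger one than CST6, and 67 and 117 a larger one than KLK12.

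The layers were also read from KRT14 (basal), KRT10 (spinous) and LOR (granular) in each cell, without clusters. Cells with at least 10 LOR per 10000 UMIs formed the LOR range, and other cells with at least 20 of 1 keratin and at least 2 times as much of it as of the other formed the KRT14 and KRT10 ranges. The KRT10 range held 93 of the 107 granular-like cells of the CT goat and 233 of the 338 of the FT goat. In the CT goat its largest part, 938 of its 2404 cells, belonged to the shallow inner root sheath-like cluster. The median cell of the KRT10 range had 1847 UMIs in the CT goat and 10573.5 in the FT goat. Its levels are therefore not those of spinous cells alone. KLK7 was at 0.170 in the KRT14 range, 3.58 in the KRT10 range and 10.7 in the LOR range of the CT goat, and at 0.397, 5.65 and 21.1 in the FT goat. KLK12 was at 0.279, 4.38 and 14.9 in the CT goat and at 0.158, 3.05 and 2.66 in the FT goat, where the LOR range did not exceed the KRT10 range. CST6 was at 1.99, 26.5 and 229 in the CT goat and at 13.0, 117 and 949 in the FT goat. Between the LOR and KRT14 ranges the log2 differences of the CT goat and the FT goat were 5.98 and 5.74 for KLK7, 5.74 and 4.07 for KLK12, and 6.85 and 6.18 for CST6.

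The LOR range was a weaker guide than its name. Its median cell had 987 UMIs in the CT goat and 1000 in the FT goat, so that 1 LOR molecule could place a cell in it, and 50 of its 65 cells in the CT goat and 656 of 879 in the FT goat had at most 2 LOR UMIs. The largest part of it, 43 and 637 cells, belonged to the shallow inner root sheath-like cluster, and only 9 and 94 were granular-like. With at least 5 LOR UMIs asked for as well, a limit chosen after seeing the data, the log2 differences were 6.11 and 6.16 for KLK7, 5.92 and 4.40 for KLK12 and 7.03 and 6.63 for CST6. The KRT14 end was low enough for free RNA to matter. For a subtraction of 10% of free RNA, the barcodes that the authors left out were the stand-in for its profile. It took the KRT14 range to or below 0 for all 3 genes in the CT goat and for CST6 in the FT goat.

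Below 10 LOR, the summed levels of the members fell from KRT10 toward KRT14, in cells that included most granular-like ones. A high KRT10 did not always go with high levels. Cluster 4, an unnamed cluster led by KRT9 and CCL20, had KRT10 at 325 in the CT goat and 409 in the FT goat. There KLK7 was at 0.296 and 0.105, KLK12 at 1.32 and 0.335 and CST6 at 1.26 and 4.61. The main basal epidermal-like cluster had 0.117 and 0.158, 0.222 and 0.118, and 1.64 and 5.45. In the CT goat, KLK7 was at 4.02 where KRT14 made up under 0.1 of the sum of KRT14 and KRT10, and then at 1.45, 0.424, 0.194 and 0.155 across limits of 0.33, 0.67 and 0.9. In the FT goat the same steps gave 6.22, 3.21, 1.48, 0.556 and 0.348. KLK12 went from 4.99 to 0.190 in the CT goat and from 3.54 to 0.143 in the FT goat, and CST6 from 28.4 to 1.51 and from 123 to 7.95. Each of these 6 series of summed levels fell at each of its steps. The median cell of CST6 did not follow this course. Over the same steps it was at 3.67, 16.9, 8.16, 2.69 and 1.29 in the CT goat. In the FT goat it was at 8.02, 16.03, 68.9, 11.9 and 5.48. The median depth of the steps was between 1183.5 and 13346 UMIs in the CT goat and between 1247 and 12476 in the FT goat, and its part in the series was not tested. With only cells of at least 1000 genes, KLK7 went from 4.08 to 0.155 and from 6.22 to 0.348, and 5 of the 6 series again fell at each step. The exception was CST6 in the FT goat, at 124, 91.7, 29.7, 30.4 and 7.84, which did not fall between the 0.33 to 0.67 and the 0.67 to 0.9 steps. Its median cell there was at 7.36, 6.90, 8.22, 8.58 and 5.29.

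Along increasing LOR the genes parted. In the FT goat, CST6 was at 41.8 in cells without LOR and at 97.9, 545, 1607 and 2561 in the bins up to 10, 30, 100 and 300 LOR per 10000, but at 155 in the 18 cells at 300 or more. KLK7 followed a milder course, with 1.56, 3.49, 7.27, 40.1 and 40.2 and then 25.6. KLK5, the trypsin-like partner of KLK7, was at 17.6 in the last bin but one and at 40.6 in the last. CSTA, which encodes cystatin A, went from 35.1 to 128 over the same bins, and CTSV, which encodes cathepsin V, from 4.29 to 35.8. KLK12 stayed between 0.883 and 5.15 throughout. The cells richest in loricrin thus had less CST6 than the 3 bins before them and more KLK5, CSTA and CTSV, with a median depth of 31160 UMIs. Over the cells of at least 1000 genes CST6 was at 2549 in the last bin but one and at 136 in the 13 cells of the last. The CT goat had 4, 1 and 2 cells in its 3 upper bins, in which CST6 was at 10.9, 44.3 and 14.1, and these few cells allow no course to be drawn.

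**Figure D2:**
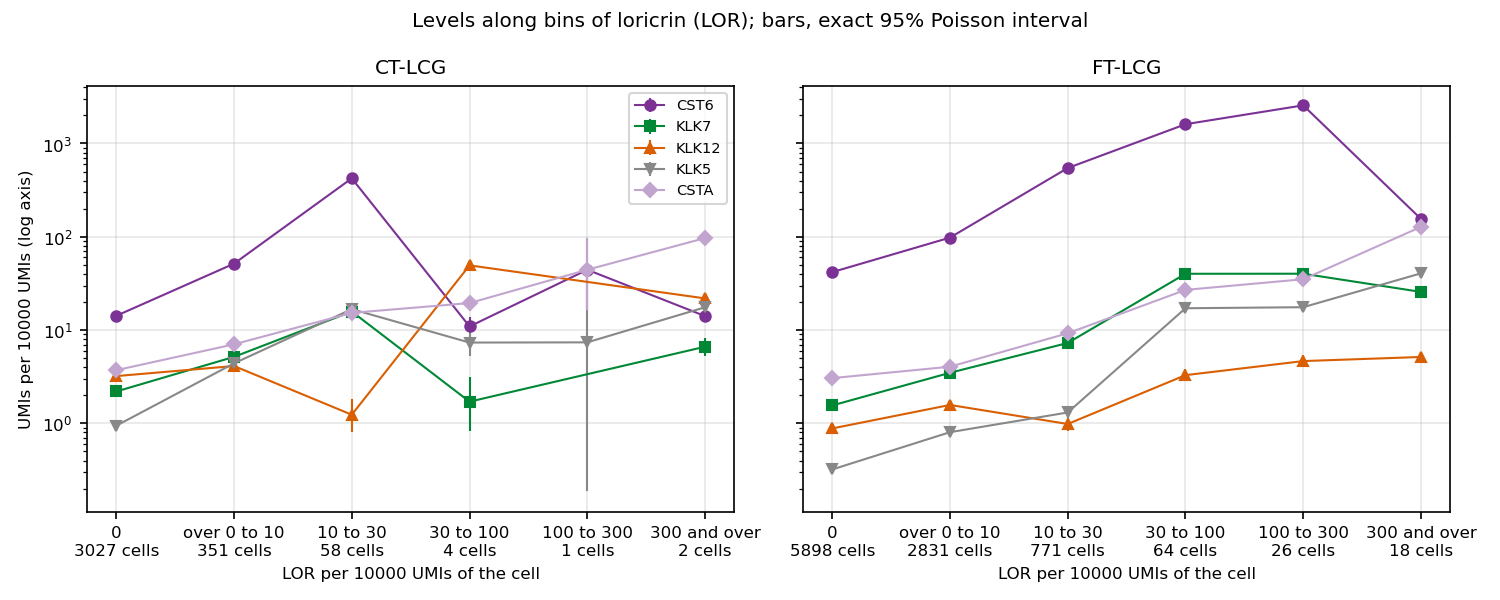
Level of CST6, KLK7, KLK12, KLK5 and CSTA (y axis, UMIs per 10000 UMIs, log axis) in bins of LOR per 10000 UMIs of the cell (x axis, with the number of cells), for CT-LCG and FT-LCG, with bars for the exact 95% Poisson interval, and with no point where a gene had no UMI. In FT-LCG, CST6 rises to 2561 and is at 155 in the 18 cells of the last bin, while KLK5 and CSTA are highest there.

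CST6 was also high in some cells with little of any of the layer genes. In the FT goat, 28 cells with under 20 KRT14, under 20 KRT10 and under 10 LOR per 10000 had CST6 above 200, and together held 117042 UMIs of CST6, which was 14.6% of those of the library. Their summed levels were 2474 for CST6, 16.3 for KLK7, 1.42 for KLK12, 5.86 for KRT14 and 4.02 for KRT10. Other suprabasal genes were present, with KRTDAP at 107, SBSN at 102, DMKN at 134 and the aspartic protease gene ASPRV1 at 18.8. Of these cells, 11 were in cluster 6 and 8 in the granular-like cluster. The CT goat had 2 such cells. Among the cells with more keratin or LOR, 293 in the FT goat and 26 in the CT goat were above 200, and they held 69.4% and 59.0% of the CST6 UMIs. The limit of 200 was chosen after seeing the data.

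Co-detection asks whether a cell with a UMI of a protease also has one of an inhibitor. Every cell was thinned to 1000 UMIs, and shallower cells were left out (273 and 691 in the inner root sheath-like cluster, but 0 and 2 in the granular-like one). After thinning, 57.0% of the granular-like cells of the CT goat and 70.8% of those of the FT goat had KLK7, and 28.0% and 17.3% had KLK12. Before thinning these shares were 89.7% and 92.6% for KLK7 and 59.8% and 46.4% for KLK12. In endothelial-like cells, the background, 10.2% and 2.9% had KLK7 and 18.4% and 1.4% had KLK12 after thinning, with median depths of 1798.5 and 2826 UMIs against 24772 and 15184.5 in the granular-like cells.

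Both proteases were seen in the same granular-like cell in 18.7% of cells in the CT goat and 13.4% in the FT goat, KLK7 alone in 38.3% and 57.4%, and KLK12 alone in 9.3% and 3.9%. Cluster 12 had the opposite balance, with KLK12 alone in 30.8% and 28.7%, KLK7 alone in 13.5% and 3.4%, and both in 8.7% and 2.2%. In cluster 6, KLK7 was found in 20.1% and 27.4% of cells and KLK12 in 1.9% and 2.1%. Single-protease cells thus had mostly KLK7 in the granular-like cells and cluster 6, and mostly KLK12 in cluster 12.

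CST6 accompanied KLK7 in nearly every granular-like cell, but it did so without KLK7 as well. Of the granular-like cells with KLK7, 90.2% (79.8 to 96.3) in the CT goat and 98.3% (95.8 to 99.5) in the FT goat had CST6, against 82.6% (68.6 to 92.2) and 96.9% (91.3 to 99.4) of those without KLK7. The intervals overlapped in both libraries. CST6 was also found in 44.9% and 61.6% of endothelial-like cells, so a single CST6 UMI says little. In cluster 6 the difference was wider, with CST6 in 67.7% (48.6 to 83.3) of KLK7 cells against 37.4% (28.8 to 46.6) of others in the CT goat, and in 93.5% (88.5 to 96.9) against 73.2% (68.6 to 77.4) in the FT goat. Its thinned CST6 level was 61.0 with and 23.5 without KLK7 in the CT goat, and 215 and 97.7 in the FT goat, with intervals apart in both. In the granular-like cells the same comparison gave 248 against 123 and 914 against 736, again apart in both libraries. For KLK12 the sign was not the same in both libraries. In the granular-like cells CST6 was at 169 with and 204 without KLK12 in the CT goat, and at 1444 with and 741 without it in the FT goat, with intervals apart in both. In cluster 6 of the FT goat the 12 cells with KLK12 were at 347 and the others at 125. All these levels pool the UMIs of cells that differed widely in CST6. Their intervals leave out the spread between cells, so intervals apart do not show that cells with and without a protease differ.

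By the ranges, CST6 was present in 88.9% of the 9 cells with KLK7 in the LOR range of the CT goat and in 99.4% of 154 in that of the FT goat. In the KRT10 range it was present in 75.8% (70.8 to 80.3) of 330 KLK7 cells in the CT goat and in 90.9% (87.7 to 93.5) of 408 in the FT goat. Of the cells without KLK7 there, 53.3% and 57.1% had it. This range pooled clusters that differed in both genes. In the FT goat it held 233 granular-like cells and 770 of cluster 4. Over each whole cluster, 70.8% and 1.2% of the thinned cells had KLK7, and 97.9% and 41.2% had CST6. The part of this mix in the shares was not tested. For KLK12 in the KRT10 range the shares were 65.6% and 56.7%, against 54.9% and 63.7% without it, so the sign differed between the libraries, and in the FT goat the intervals overlapped (49.4 to 63.8 with and 61.6 to 65.8 without KLK12). SPINK5, the inhibitor meant for this comparison, was not among the features under that symbol and so was not analysed here.

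In cluster 12 and the granular-like cells, SPINK7 was found in a larger share of the cells with KLK12 than of those without it. This pair was taken up after its values were seen. In cluster 12, SPINK7 was present in 100% (91.4 to 100) of 41 KLK12 cells of the CT goat, against 87.3% (76.5 to 94.4) of the others, and in 97.6% (91.6 to 99.7) of 83 in the FT goat, against 35.7% (28.8 to 43.0). In the granular-like cluster the shares were 90.0% (73.5 to 97.9) against 41.6% (30.4 to 53.4) in the CT goat and 51.7% (38.2 to 65.0) against 23.0% (18.2 to 28.4) in the FT goat. Apart from cluster 12 of the CT goat, where both shares were near the top, the intervals were apart. Endothelial-like cells had SPINK7 at 35.5 per 10000 in the CT goat and 1.95 in the FT goat, so its background was higher in the CT goat. CST6 had the other sign in cluster 12 of the FT goat, with 30.1% (20.5 to 41.2) of KLK12 cells against 53.0% (45.5 to 60.3) of the others, while in the CT goat the shares were 17.1% and 15.9%.

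**Figure D3:**
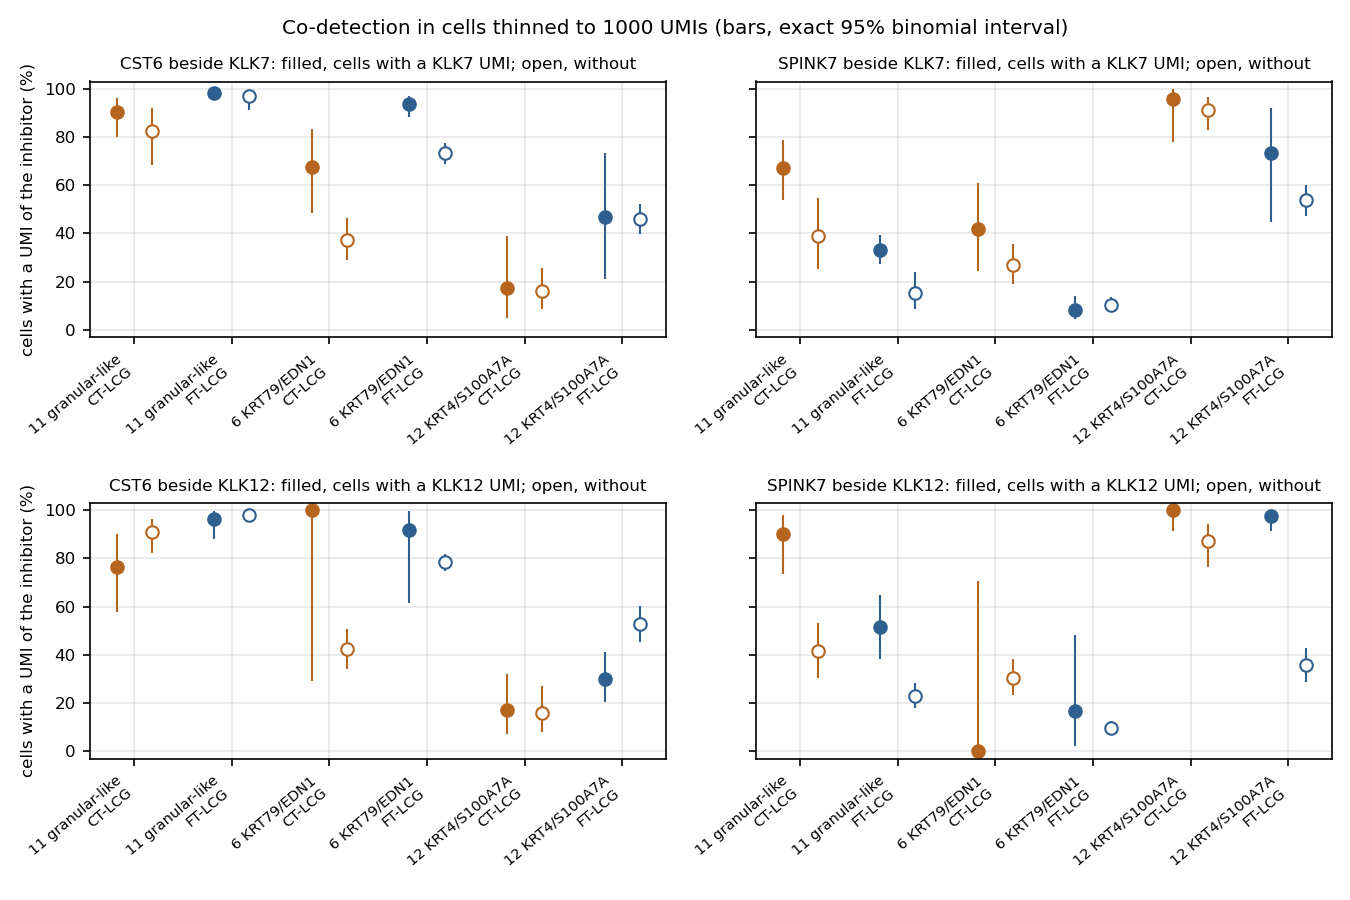
Share of cells with a UMI of CST6 (left) or SPINK7 (right) among cells with a UMI of KLK7 (top) or KLK12 (bottom), filled points, and without one, open points, in 3 clusters of each library (x axis), after thinning to 1000 UMIs, with exact 95% binomial intervals. SPINK7 stands at 97.6% beside KLK12 and at 35.7% without it in cluster 12 of FT-LCG, and CST6 is above 80% with and without KLK7 in the granular-like cells.

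Most of the other kallikreins had their highest level in the granular-like cells, as KLK7 did. The second place was often another one than the cluster 6 of KLK7. It was cluster 12 for KLK5 and KLK8 in both libraries, and cluster 6 for KLK6 in the CT goat and KLK11 in the FT goat. Of 15 human-named kallikreins looked for, 12 were among the features, and 10 had at least 50 UMIs in the kept cells, members included. All 8 of those that are not members were at least 2 times as high in granular-like as in basal epidermal-like cells in both libraries, with a median log2 difference of 4.56 in the CT goat and 5.59 in the FT goat, beside a median of -0.22 and -0.43 over all genes compared, of which 14.5% and 11.5% passed that factor. Some of the 8 were below the limit of 100 UMIs set for all genes compared. In the CT goat these were KLK13, with 24 against 0 UMIs, KLK9, with 48 against 2, and KLK14, with 78 against 3. In the FT goat it was KLK13, with 35 against 4. The difference of KLK13 in the CT goat was set by the floor of 3 counts. The medians of 4.56 and 5.59 include these values. KLK5 was at 12.8 and 11.1 in granular-like cells against 0.115 and 0.043 in basal ones. KLK8, KLK6, KLK9, KLK13 and KLK14 also had their highest level in the granular-like cluster of both libraries, with KLK8 at 3.59 and 2.25 and KLK14 at 0.274 and 0.976. In the CT goat, KLK9 was nearly level between the granular-like cells and cluster 2 (0.169 in both), as was KLK13 between them and cluster 15 (0.0844 and 0.0823). KLK10 and KLK11 were the exceptions. KLK10 was highest in cluster 12 of the CT goat (6.02) and in cluster 15 of the FT goat (9.73), and KLK11 was highest in cluster 2 of the CT goat (4.13). KLK4 and KLK15 had 26 and 3 UMIs in all.

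Among the inhibitors of serine proteases, 7 of the 13 listed were among the features and all 7 had at least 50 UMIs. SPINK7 was at 246 in cluster 12 and 130 in the granular-like cells of the CT goat, and at 139 and 35.9 in those of the FT goat. SPINK9, an inhibitor known to act on KLK5, was at 6.28 and 4.34 in the CT goat and 7.13 and 5.00 in the FT goat. Both SPINK genes thus peaked in cluster 12, which was also high in KLK12. SERPINA12, a serpin that can block KLK7, was highest in the granular-like cells, at 2.85 and 1.60. WFDC5 was at 1.04 there in each library. SPINT2 differed little between granular-like and basal cells, at 4.48 against 4.07 and 6.001 against 5.06. SPINT1 was at 0.721 against 0.234 in the CT goat and 0.471 against 0.180 in the FT goat. In all, 6 of 7 were at least 2 times as high in granular-like as in basal cells in each library, with medians of 2.80 and 5.74, where 14.5% and 11.5% of all genes compared were. One of the 6 in the CT goat, PI3, had 6 against 2 UMIs, and the interval of its log2 difference ran from -0.98 to 4.84. It was thus below the limit of 100 UMIs set for all genes compared.

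Of the target proteases of CST6 named above, CTSV and legumain (LGMN) could be compared. In the FT goat CTSV came near a factor of 2. So did CTSB, another listed protease gene, at 1.76 in granular-like against 0.905 in basal cells. In the CT goat CTSB was at 0.946 against 0.822. CTSV was at 1.51 in granular-like against 1.95 in basal cells of the CT goat. In the FT goat it was at 3.85 against 1.99, a log2 difference of 0.95 (0.87 to 1.03). Between the LOR and KRT14 ranges CTSV was 1.94 times as high in the CT goat and 4.05 times in the FT goat. LGMN was at 0.084 against 0.093 and 0.080 against 0.109 in granular-like and basal cells. CTSL, with 46 UMIs in all kept cells, was too sparse to compare. Of the 7 listed cysteine and aspartic proteases with at least 50 UMIs, 3 in the CT goat and 4 in the FT goat were at least 2 times as high in granular-like cells, against 14.5% and 11.5% of all genes compared, led by CASP14, a caspase of cornification (1.40 and 7.31), and ASPRV1 (6.74 and 17.6). One of the 4 in the FT goat, CTSH, had only 15 against 4 UMIs. CTSD passed the factor in both libraries, at 3.37 against 0.993 in the CT goat and 3.59 against 1.14 in the FT goat. CSTA was highest in the granular-like cells as well, at 17.3 and 26.2. Of the transglutaminases, TGM1 and TGM5 were higher in granular-like than basal cells in both libraries, and TGM3 was at 3.46 against 0.789 in the CT goat but at 0.795 against 1.23 in the FT goat. All 3 corneodesmosome genes passed a factor of 2 in both libraries, as 14.5% and 11.5% of all genes did. CDSN was at 2.73 and 8.40 in granular-like cells, 122 and 174 times the basal level, and DSC1 at 3.85 and 2.99, 3.05 and 3.64 times. DSG1 only just passed, at 7.27 and 5.36 against 3.44 and 2.56 in basal cells. Among the 5 proteases that can activate kallikreins, PRSS8 was at 0.369 and 0.527 in granular-like cells and ST14 at 0.260 and 0.147. PLAU, at 0.042 and 0.051 against 1.61 and 1.23, was the one that was lower there than in basal cells. TMPRSS13 was at 0.169 and 0.210 against 0.033 and 0.035. PRSS27 had few UMIs, with 25 against 0 in the CT goat and 85 against 1 in the FT goat.

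**Figure D4:**
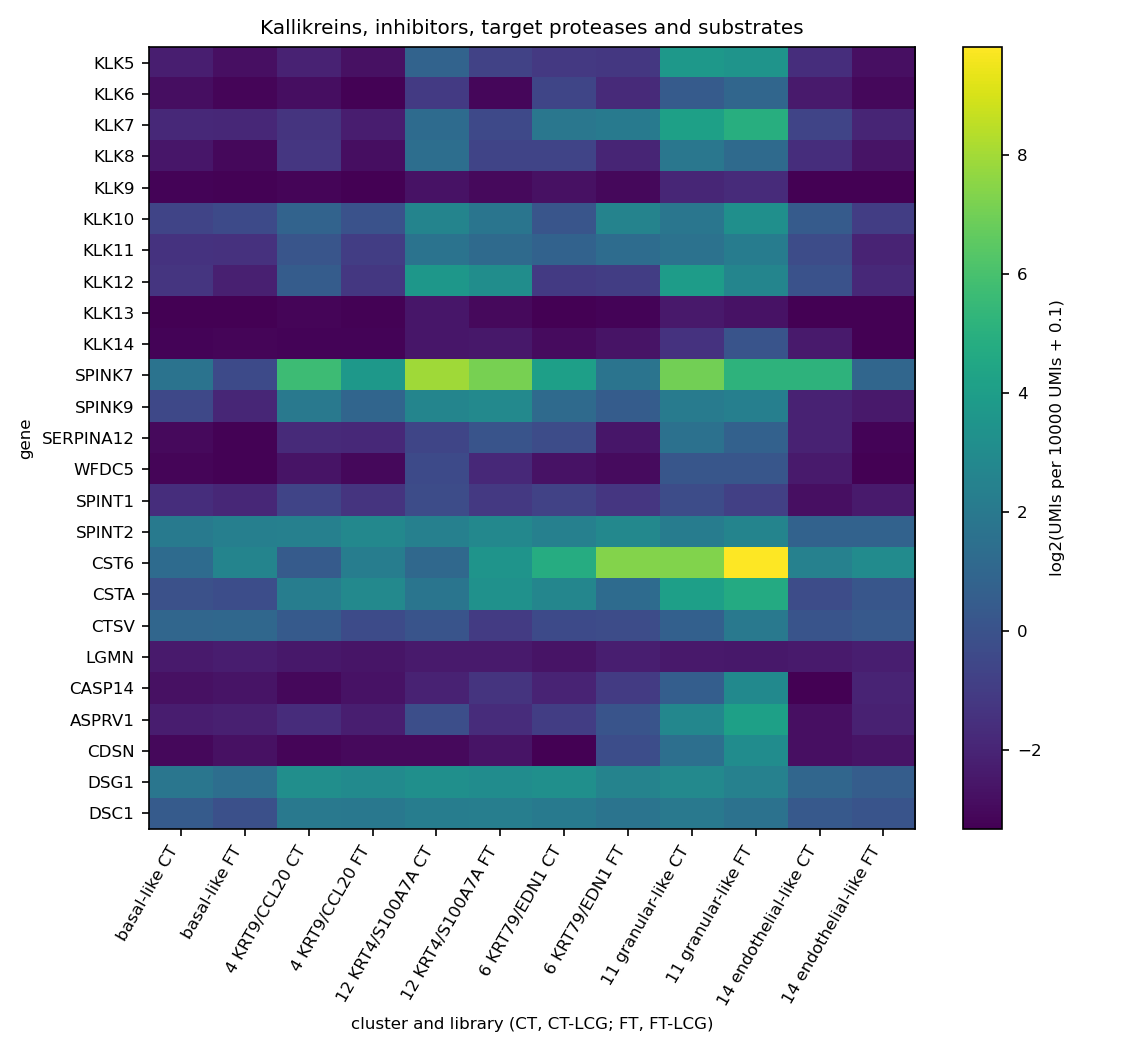
Level of kallikreins, serine protease inhibitors, cystatins, target proteases and corneodesmosome genes (rows) in 6 groups of clusters of each library (columns), as log2(UMIs per 10000 UMIs + 0.1) by colour, yellow for the highest. Most kallikreins are brightest in the granular-like columns, KLK12 and SPINK7 also in cluster 12, and CST6 is brightest in the granular-like cells of FT-LCG.

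CST6 differed most between the libraries, as the choice of the members already implied. Over all kept cells its level was 23.1 (22.9 to 23.3) in the CT goat and 93.7 (93.5 to 93.9) in the FT goat, 4.06 times as high in the FT goat, or -2.02 as log2 of the CT goat over the FT goat. KLK12 had the other sign, with 3.52 (3.45 to 3.59) against 1.21 (1.19 to 1.23), a log2 ratio of 1.54. KLK7 was at 2.78 (2.72 to 2.84) and 2.95 (2.92 to 2.99), a log2 ratio of -0.09. Among 13014 genes with at least 100 UMIs, 7.24% were at least 2 times as high in the CT goat and 8.41% at least 2 times as high in the FT goat. CST6 had 230 genes below it in this order and KLK12 had 386 above it.

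The CST6 difference was found within most kinds of cells. In the granular-like cells it was 904 in the FT goat against 162 in the CT goat, 5.57 times, and in cluster 6 it was 165 against 28.0, 5.90 times. In 15 of the 17 clusters the FT goat was higher beyond counting error. The exceptions were cluster 10, a basal epidermal-like cluster at 10.5 in the CT goat and 9.64 in the FT goat, whose interval included no difference, and cluster 15, where the CT goat was higher (61.6 against 21.4). With the 5 ranges of layer genes weighted equally the log2 ratio was -2.19. The FT goat was also higher in cells that should lack CST6, with 8.10 against 5.36 in endothelial-like and 10.2 against 3.94 in fibroblast-like cells. The barcodes left out by the authors moved the same way, at 143 in the FT goat and 29.7 in the CT goat. The part of free RNA in the difference was not tested. Within granular-like cells, 3.46% of 5722 genes were at least 2 times as high in the FT goat and 9.56% in the CT goat.

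KLK12 was higher in the CT goat beyond counting error in 13 of 17 clusters and in the FT goat in none of them. In the granular-like cells it was at 15.002 against 6.24 and in cluster 12 at 12.3 against 8.65, log2 ratios of 1.26 and 0.51. In cluster 12, 7.67% of 5695 genes were at least 2 times as high in the CT goat and 3.76% in the FT goat. SPINK7 went the same way, at 59.0 in the CT goat and 14.4 in the FT goat over all cells, and S100A7A was at 258 and 57.5 in the granular-like cells. Endothelial-like cells had 0.885 and 0.182 of KLK12, a difference of the same sign whose source was not tested.

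KLK7 showed no single direction. It was at 29.9 in the FT goat against 17.5 in the CT goat in the granular-like cells (log2 ratio -0.78) but at 0.634 against 2.34 in cluster 12 (1.88), and at 4.17 against 3.61 in cluster 6. The CT goat was higher beyond counting error in 7 clusters and the FT goat in 3. Within the granular-like cells the kallikreins parted as well. KLK10 was 2.70 times and KLK14 3.56 times as high in the FT goat, KLK8 was 1.60 times as high in the CT goat, and KLK5 was at 12.8 and 11.1. Some other genes of cornification were higher in these cells of the FT goat, with LOR at 92.4 against 49.6, CDSN at 8.40 against 2.73, CASP14 at 7.31 against 1.40 and ASPRV1 at 17.6 against 6.74. Others went the other way, with TGM3 at 0.795 in the FT goat against 3.46 in the CT goat, DSG1 at 5.36 against 7.27 and DSC1 at 2.99 against 3.85. TGM1, at 0.761 against 0.696, and TGM5, at 0.418 against 0.503, were within counting error. The LOR levels were set by few cells, with the median granular-like cell at 0 in the CT goat and 1.19 in the FT goat. The highest cells were at 2016 and 2424. The 2 sets of granular-like cells were not alike in summed LOR, and the part of this in the differences of the members was not tested. Markers of fibroblasts, endothelium, T cells, mast cells and macrophages or dendritic cells were each at a summed level of at most 0.081 per 10000 in the granular-like cells, against 15.2 to 215 in the clusters named for them.

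**Figure D5:**
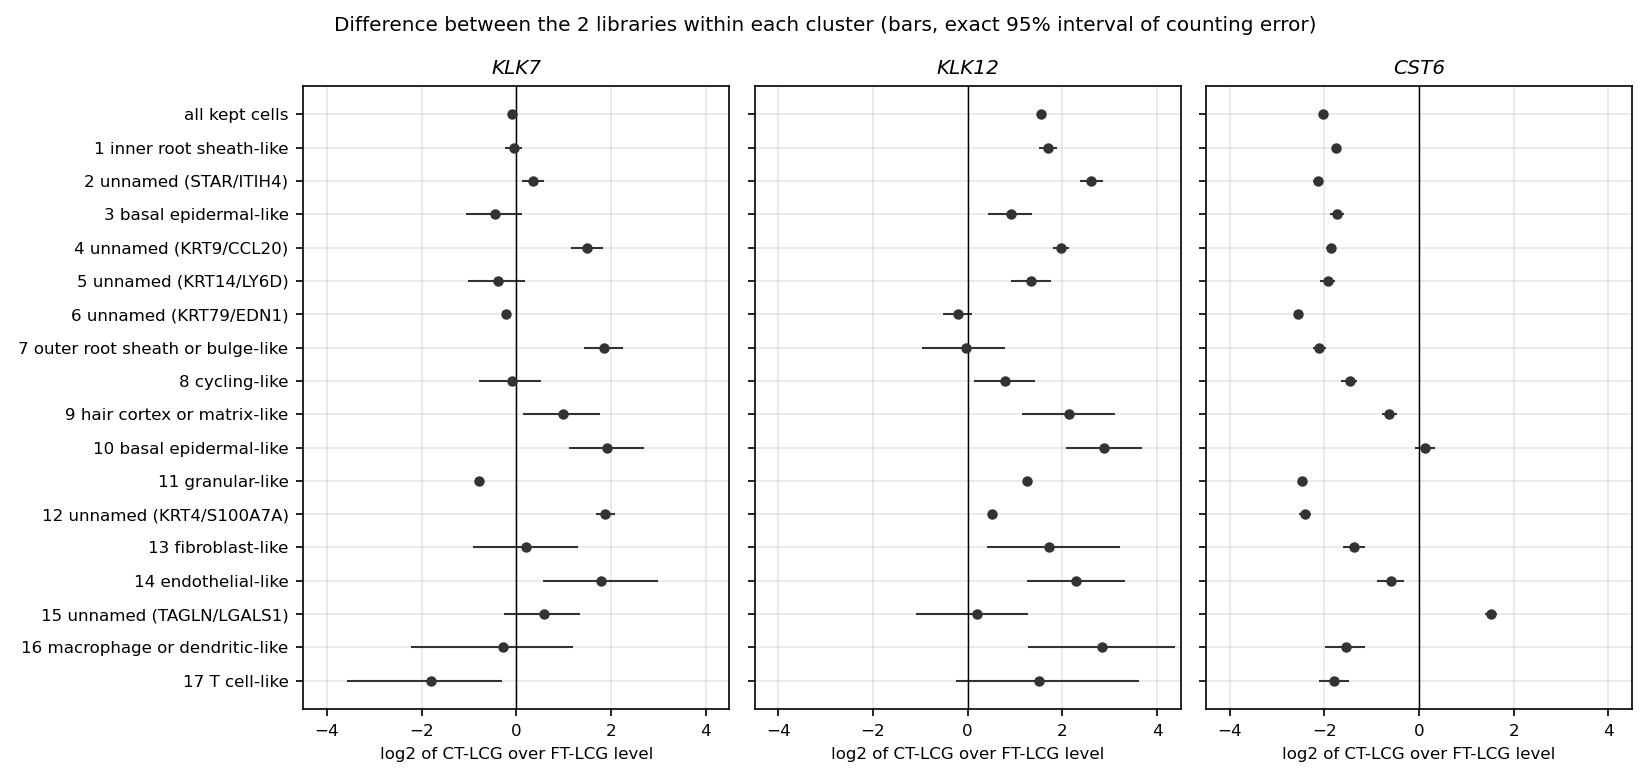
Difference between the libraries as log2 of the CT-LCG over the FT-LCG level (x axis) of each member in all kept cells and in each of 17 clusters (y axis), with exact 95% intervals of counting error and a line at no difference. CST6 lies left of the line (higher in FT-LCG) in all but clusters 10 and 15, KLK12 lies mostly right of it, and KLK7 lies on both sides.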

How the data were processed

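The authors counted UMIs per gene and barcode with Cell Ranger (version 3.0.2 in the file header). They deposited these counts, without normalization, as 1 matrix of both libraries. With it came a list of the kept cells and the library of each. The paper gives a least number of 500 genes and an upper limit of mitochondrial gene coverage for these cells. The submitters' processing notes also name Seurat 3.1.1. For the goat build and annotation, none of the sources used here gives a name. Of the 27137 features, 27103 had their identifiers in the RefSeq table, which served only for the order of genes.

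The members and gene lists were chosen with earlier results of these data known. Levels are UMIs per 10000, with Poisson, Clopper-Pearson or conditional binomial intervals at 95%, and a group at 0 was taken at a floor of 3 counts. Kept cells had 729 to 172185 UMIs in the CT goat and 630 to 190503 in the FT goat. Cells were clustered from 2000 variable genes, without the members and list genes, on 10 principal components corrected by Harmony (written again in numpy), with 20 neighbours and the Leiden algorithm at a resolution of 0.7 (scanpy 1.11.5, leidenalg 0.10.2). A cluster was named when at least 3 fixed markers of a cell type were detected, with a mean log2 fold of at least 1, and at least 1 of them was among its 10 leading genes, more than for any other type. The text names the members, the listed genes with at least 50 UMIs and the 5 genes of most like profile (1 of them is not reported here), and any further gene was named after its values were seen. Scrublet marked 0 doublets, which is not taken as a working call, so none were removed. With 1 library per type no test was run. The functions were tested on simulated data. Sequences of promoters and proteins were not used here.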

Additional observations from a re-analysis of the deposited data

Results flagged for a closer look

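The members were also counted in barcodes that the authors left out of their list of cells, which are in none of the clusters and ranges. Above, these barcodes served as a reference for some levels and as a stand-in for the profile of free RNA. Their numbers match the cells that the paper removed in its quality control, by limits on genes and on mitochondrial gene coverage. They had thus been called as cells and are not a set of empty droplets. How much of their content is free RNA was not tested. In the 2659 left-out barcodes of the CT goat the levels were 2.41 per 10000 for KLK7, 3.02 for KLK12 and 29.7 for CST6, and in the 1589 of the FT goat they were 3.72, 1.07 and 143. They were flagged because each lies above the level that a count of 0 would allow, 0.0151 in the CT goat and 0.0301 in the FT goat. The median left-out barcode had 716 and 607 UMIs.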

How the results depend on the processing

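The libraries were 1 goat each and their depths limit the LOR range most, since a shallow cell enters it with 1 LOR UMI. No alternative changed the sign of a layer or cluster difference or of the CST6 and KLK12 ratios, but 70 values moved by more than their narrow counting intervals, 32 did not, and 1 changed sign. No paired analysis was possible because each type has 1 library. KLK7 over all cells went from a log2 ratio of -0.09 to 0.0669 without the 1% of cells with the most KLK7 in each library, an alternative chosen after seeing the data, as were all those for the KLK7 and KLK12 ratios. In what follows, log2 differences between the LOR and KRT14 ranges are given for KLK7, KLK12 and CST6 in that order. The cause of the moves was not tested.

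With cells of at least 1000 genes they were 6.04 for KLK12 and 7.19 for CST6 in the CT goat, and 6.18, 4.38 and 6.65 in the FT goat. Thinned to 1000 UMIs they were 5.21, 3.70 and 5.03 in the CT goat and 4.43, 3.05 and 4.78 in the FT goat. As a mean over cells they were 4.16, 2.79 and 4.28 in the CT goat and 3.65, 2.84 and 4.01 in the FT goat. Scaled without the 20 most abundant genes and the members, KLK7 and CST6 were at 5.86 and 6.31 in the FT goat. With 10% free RNA subtracted, KLK7 was at 9.73 and KLK12 at 5.66 in the FT goat, and the other 4 gave no value because the KRT14 range fell to or below 0. Without the top 5% of cells by Scrublet, KLK7 and CST6 were at 5.88 and 6.25 in the FT goat. With a LOR limit of 5, KLK12 was at 5.06 in the CT goat, and the FT goat gave 5.48, 3.76 and 6.01. With a LOR limit of 30, which left 7 cells in the CT goat, they were 4.88, 6.73 and 2.72 in the CT goat and 6.38, 4.77 and 6.47 in the FT goat. With 5 times between KRT14 and KRT10, KLK12 and CST6 were at 6.32 and 7.08 in the CT goat and KLK7 and CST6 at 5.86 and 6.21 in the FT goat. With at least 5 LOR UMIs, CST6 was at 7.03 in the CT goat, and the FT goat gave 6.16, 4.40 and 6.63.

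The granular-like over basal difference, as the mean of the libraries, was 6.98 for KLK7, 5.62 for KLK12 and 6.69 for CST6. It was 7.67 for KLK7 without Harmony, and for CST6 it was 7.08 without Harmony, 6.92 at a resolution of 0.4 and 6.91 with another seed. The CST6 library ratio was -2.05 with cells of at least 1000 genes, -1.78 thinned, -1.75 as a mean over cells, -2.06 with the other scaling, -1.98 with free RNA subtracted, -2.07 without the top 5% by Scrublet and -2.07 without the 1% of cells with the most CST6. That of KLK12 ran from 1.45 to 2.09. The share of KLK7 cells with CST6 was 100% in the LOR range of both libraries when thinned to 2000 UMIs and 100% in that of the FT goat without thinning. In the KRT10 range it was 93.7% without thinning in the CT goat, and 96.4% thinned to 2000 UMIs and 99.5% without thinning in the FT goat. The number of genes at least 2 times apart was 2037 at 100 UMIs, 3115 at 20 UMIs and 5329 with no limit.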
